A study of Mus musculus with 2 samples.

Results

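The data described here are the levels of 7 transcription factor genes of the red blood cell lineage (Klf1, Klf3, Nfe2, Gfi1b, Bcl11a, Sox6 and Zbtb7a) among the 29453 genes counted in single cells of mouse chimaeras. The genes were listed by name as regulators that act with or after Gata1, the X-linked gene for the zinc finger factor on which erythroid and megakaryocyte maturation depends, a rule that by itself uses no measured value. In the study, tdTomato-expressing embryonic stem cells (ESCs) were edited with Cas9, and 1 clone with a frameshift in an exon of Gata1 was injected into C57BL/6 blastocysts. Whole embryos were pooled, 6 in all, and sorted into tdTom+ cells, which come from the clone labelled Gata1-/-, and tdTom- cells, which are wildtype (WT) cells of the host. Each fraction gave 1 droplet library of 3′ tags. The age label is E8.5 for the tdTom+ sample and E8.6 for the tdTom- sample, although both came from the same pool. Genotype, clone, origin from ESCs or host, and library therefore change together between the fractions and cannot be told apart, and no difference between them has a replicate check. No p-value is given for that reason. All 95% intervals cover counting error only.

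Erythroid maturation is driven by a small set of factors that bind DNA beside Gata1. Klf1 (EKLF) binds CACCC boxes and switches on globin, haem and membrane genes, and Nfe2 codes for the large subunit of NF-E2, which acts at globin enhancers and in platelet formation. Klf3 (BKLF) and Gfi1b act mainly as repressors, the former on CACCC boxes through CtBP and the latter with the demethylase Kdm1a and CoREST. Bcl11a, Sox6 and Zbtb7a (LRF) are known as silencers of embryonic or foetal globin genes in definitive red cells.

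The promoters of 4 of these genes are printed to show where they hold the words that Gata1 (GATA) and the Klf factors (CACCC) are known to bind. Each window runs from 250 bases before to 50 bases after a RefSeq transcript start (GRCm38.p6), 5′ to 3′ on the strand of the gene. Capitals mark the GATA words, which are AGATAA or, with its last letter changed, AGATAG, and the same words beginning with T (TGATAA or else TGATAG), and they mark the CACCC word CACACCC. All were searched on both strands, so that a match on the opposite strand reads as its reverse complement. None of the marked words overlap. Klf1 and Gfi1b are shown for their GATA words, Klf3 as a window with none of the searched words, and Sox6 for the gene that differed most between the fractions. The Klf3 and Gfi1b windows do hold the shorter CACCC, which was not searched by itself.
Klf1 (chr8:84901732-84902031, plus strand): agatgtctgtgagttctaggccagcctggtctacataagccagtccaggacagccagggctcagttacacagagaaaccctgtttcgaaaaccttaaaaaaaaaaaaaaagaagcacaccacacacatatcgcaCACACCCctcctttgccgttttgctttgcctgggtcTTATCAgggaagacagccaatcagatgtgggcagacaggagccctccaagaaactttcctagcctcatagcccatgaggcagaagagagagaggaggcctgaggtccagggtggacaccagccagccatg
Gfi1b (chr2:28621933-28622232, minus strand): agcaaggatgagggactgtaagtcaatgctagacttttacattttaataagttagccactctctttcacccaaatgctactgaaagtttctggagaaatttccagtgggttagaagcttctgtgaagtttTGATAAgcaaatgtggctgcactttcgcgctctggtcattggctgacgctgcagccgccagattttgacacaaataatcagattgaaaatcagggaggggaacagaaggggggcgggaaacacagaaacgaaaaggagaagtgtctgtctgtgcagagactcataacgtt
Klf3 (chr5:64803271-64803570, plus strand): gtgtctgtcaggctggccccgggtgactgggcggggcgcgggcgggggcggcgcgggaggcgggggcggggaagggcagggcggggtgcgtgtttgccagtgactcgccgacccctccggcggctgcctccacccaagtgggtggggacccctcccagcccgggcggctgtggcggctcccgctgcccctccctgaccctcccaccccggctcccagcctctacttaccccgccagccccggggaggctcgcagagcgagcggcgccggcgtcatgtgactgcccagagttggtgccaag
Sox6 (chr7:115846091-115846390, minus strand, 1 of 6 starts): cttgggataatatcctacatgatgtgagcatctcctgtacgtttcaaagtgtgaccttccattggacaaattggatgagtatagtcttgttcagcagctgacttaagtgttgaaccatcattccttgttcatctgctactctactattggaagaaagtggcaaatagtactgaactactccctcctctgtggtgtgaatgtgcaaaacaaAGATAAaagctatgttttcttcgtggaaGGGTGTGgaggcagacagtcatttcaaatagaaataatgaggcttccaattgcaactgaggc
The Klf1 window holds TGATAA on the opposite strand with its first base at -80 and CACACCC at -116, counted from the start of transcription. The Gfi1b window holds TGATAA at -120. The printed Sox6 window holds AGATAA at -40 and CACACCC on the opposite strand at -12. Of the windows not printed, that of Zbtb7a holds AGATAA at -39 and again on the opposite strand at -116, and another Sox6 window holds TGATAA and TGATAG after the start, at 11 and 23. No match to the searched words was found in the windows of Klf3 and Bcl11a or in the other 4 of Sox6. A window was found for 6 of the 7 genes, in 11 windows in all. Of all 32851 windows, 29.8% held at least 1 of the GATA words and 7.95% held CACACCC, so a match by itself is common. A match describes letters and not a bound site.

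The 7 genes differ widely in length, and the part of length in how their UMIs divide into layers was not tested. Klf1 is a gene of 3.4 kb with 3 exons (chr8:84901928-84905291, plus strand, GRCm38). Nfe2 lies at chr15:103248212-103258403 on the minus strand, Klf3 at chr5:64803388-64832901 on the plus strand and Gfi1b at chr2:28609450-28621982 on the minus strand. Bcl11a (chr11:24078056-24174123) and Zbtb7a (chr10:81135220-81152995) lie on plus strands. Sox6 covers 567.9 kb (chr7:115470872-116038796, minus strand), of which 553093 bases are intronic. Sox6 and Bcl11a are each overlapped by genes on the opposite strand that have columns of their own, Sox6os and Gm45025 for Sox6 and 4930538E20Rik and Gm12064 for Bcl11a. The sources used here do not say whether the layers were counted by strand, so the UMIs of these 2 genes may include antisense ones.

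The tables held 8981 tdTom+ and 9252 tdTom- barcodes, of which 18 barcodes occur in both libraries, with 167940767 and 157174026 spliced UMIs (unique molecular identifiers) and medians of 17598 and 15996 per cell. After cells called doublets were left out, 8568 and 8722 cells remained. A cell was taken as globin-expressing when at least 1% of its spliced UMIs fell on 8 globin genes, which held for 945 tdTom+ and 1451 tdTom- cells. The globin share had a median of 2.39% and a maximum of 9.06% in the former and a median of 9.31% and a maximum of 27.4% in the latter. In neural-like cells, which should lack globin, the median share was 0.0154% and 0.0840%. The globin-expressing cells lay in different clusters: 840 of the tdTom+ cells were in a blood progenitor-like cluster and 96 in a cluster left unnamed because it had all 6 blood progenitor markers raised but was led by myeloid genes such as Fcer1g, Spi1 and Alox5ap, with 3 myeloid markers raised, while 1342 of the tdTom- cells were in an erythroid-like and 50 in a megakaryocyte-like cluster. The summed level of 7 erythroid markers was 421 CPM (UMIs per 1000000 spliced UMIs of the set) in tdTom+ and 1494 CPM in tdTom- globin-expressing cells, and that of 6 blood progenitor markers 498 and 71.6 CPM. Of 6 myeloid markers, 2 were at 0 in tdTom+ and 1 in tdTom- cells, with summed levels of 10.8 and 0.612 CPM. The part of these markers in the values below was not tested. Gata1 itself was at 31.3 CPM in tdTom+ globin-expressing cells (28.9 to 33.8) and at 130 CPM in tdTom- ones (126 to 135). Its unspliced share of UMIs was 58.9% against 8.03%. Unspliced Gata1 went the other way from spliced Gata1 between the main clusters of these cells. Per 1000000 unspliced UMIs it was at 365 in blood progenitor-like tdTom+ cells and at 109 in erythroid-like tdTom- cells. A 3′ tag need not cover the edited exon, so these values do not check the edit.

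Which of the 7 regulators differ between globin-expressing cells of the fractions was asked first. A gene was called lower or higher when it changed at least 2-fold and the 95% interval of the fold excluded no change, among genes with at least 50 UMIs over both fractions. Klf1 and Klf3 were lower in tdTom+ cells and Sox6 was higher, Nfe2 and Gfi1b changed less than 2-fold, and Bcl11a and Zbtb7a had too few spliced UMIs to be judged. Of all 9862 genes judged in the same way, 4.58% were lower and 7.87% higher in tdTom+ cells. Sox6 reached the minimum of UMIs through its tdTom+ cells alone, so that its place among the 5 genes judged already depended on a high level there.

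Klf1, the activator of globin and haem genes, was the first of the 2 genes that were lower. It was at 109.5 CPM in tdTom+ globin-expressing cells (2270 UMIs, interval 105 to 114) and at 237 CPM in tdTom- ones (6573 UMIs, 231 to 242). This is a log2 fold of -1.11 (-1.18 to -1.04), or 2.16-fold lower, with Klf1 transcripts still present in cells of the Gata1-/- clone. At least 1 spliced Klf1 UMI was found in 79.7% of the tdTom+ and 93.1% of the tdTom- globin-expressing cells. When each cell was thinned to 5000 UMIs, leaving 938 and 1390 cells, the shares were 39.98% and 68.4%. Neural-like cells, thinned in the same way, had a Klf1 UMI in 0.907% of tdTom+ and 1.38% of tdTom- cells. Their median depths before thinning were 16800 and 15169 UMIs, beside 21485 and 18829 in the globin-expressing cells, so the shares in globin-expressing cells stood far above background in both fractions.

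Nfe2, the erythroid and megakaryocyte activator, went the other way without reaching 2-fold. It was at 74.5 CPM in tdTom+ (1545 UMIs, 70.9 to 78.3) and at 45.1 CPM in tdTom- globin-expressing cells (1254 UMIs, 42.7 to 47.7), a log2 fold of 0.72 (0.62 to 0.83). In thinned cells a UMI of Nfe2 was found in 27.8% of tdTom+ and 19.8% of tdTom- cells, beside 0.605% and 0.314% of neural-like cells. Klf1 and Nfe2 thus stood in opposite order between the same 2 sets of cells.

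Klf3, which competes with Klf1 for CACCC boxes as a repressor, was lower by about the same ratio as Klf1. Its level was 20.4 CPM in tdTom+ (424 UMIs, 18.6 to 22.5) and 48.3 CPM in tdTom- globin-expressing cells (1342 UMIs, 45.8 to 51.0), a log2 fold of -1.24 (-1.40 to -1.08). At a globin share of at least 3% Klf3 was no longer called, with a log2 fold of -0.74. Unlike Klf1, Nfe2 and Gfi1b it is widely expressed, and neural-like cells held 47.6 CPM of it in tdTom+ and 50.7 CPM in tdTom-, so that no cell set here gives a background for Klf3. Thinned tdTom+ globin-expressing cells had a Klf3 UMI in 8.10% and tdTom- ones in 19.7%, beside 20.5% and 20.8% of neural-like cells.

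Gfi1b, the repressor that recruits Kdm1a, differed least. It was at 49.4 CPM in tdTom+ (1024 UMIs, 46.4 to 52.5) and at 60.6 CPM in tdTom- globin-expressing cells (1684 UMIs, 57.8 to 63.6), a log2 fold of -0.30 (-0.41 to -0.18). The interval leaves out no change, yet the size stayed well under 2-fold. The thinned shares of cells with a Gfi1b UMI were 20.6% and 24.8%, whose intervals of 18.0% to 23.3% and 22.6% to 27.2% overlapped, and 0.101% and 0.188% of neural-like cells had one.

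Among the 3 globin silencers only Sox6 had enough spliced UMIs. It was at 19.5 CPM in tdTom+ globin-expressing cells (405 UMIs, 17.7 to 21.5) and at 0.252 CPM in tdTom- ones (7 UMIs, 0.101 to 0.519), a log2 fold of 6.28 (5.22 to 7.60). With so few tdTom- UMIs the size of this fold depends on how they are summed, and it was 4.14 as a mean over cells and 4.55 with called doublets kept. A spliced Sox6 UMI was found in 29.8% of the tdTom+ and 0.482% of the tdTom- cells. Thinned, the shares were 7.89% and 0.0719%, beside 0.907% and 1.44% of neural-like cells, some of which express Sox6 themselves, so that no cell set here gives a background for Sox6 either. The 7 UMIs of tdTom- cells were not told apart from free RNA. Bcl11a had 6 spliced UMIs in tdTom+ and 2 in tdTom- globin-expressing cells. Zbtb7a had 3 and 7 spliced UMIs. At these counts of the spliced layer, which holds little of Zbtb7a, a difference in either gene was not detectable.

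**Figure D1:**
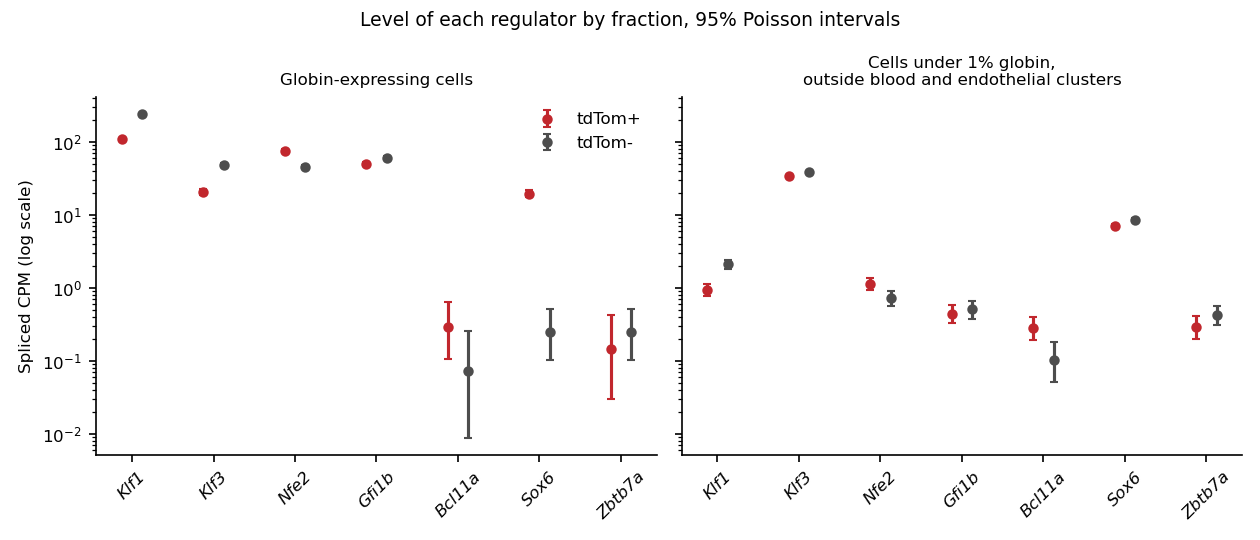
Level of each of the 7 genes (spliced CPM, log scale) in globin-expressing cells and in cells under 1% globin outside blood and endothelial clusters. Points are the level of 1 library over the cells of the set and bars are exact Poisson 95% intervals. Among globin-expressing cells Klf1 and Klf3 lie lower in tdTom+ (109.5 and 20.4 CPM) than in tdTom- (237 and 48.3 CPM), and Sox6 lies at 19.5 against 0.252 CPM, while outside blood Sox6 lies at 7.06 and 8.6 CPM.

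Since tdTom+ cells held less globin, the fractions were compared next within bins of the share of globin UMIs, which brings cells of more similar globin content together. The shared range reached up to 10%, above which there were 635 tdTom- and 0 tdTom+ cells. Between 3% and 10% globin, with 319 tdTom+ and 712 tdTom- cells, the match is loose: the median share was 3.86% in the former and 7.27% in the latter, so the narrower bins of 3% to 5% and 5% to 10% are given as well. The clusters differ here too: 302 of these tdTom+ cells were blood progenitor-like and 689 of the tdTom- cells erythroid-like. The part of the clusters in the folds was not tested. Over the whole bin, the background over 8498 genes was 4.67% lower and 5.21% higher, and of the 7 genes only Sox6 was called. Klf1 crossed the line as a mean over cells (-1.03) and after thinning (-1.005), while thinned Sox6 counts, 27 in tdTom+ and 0 in tdTom- cells, fell under the minimum of 50 UMIs for a call.

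Klf1 was also lower within the bins above 3%, by less than 2-fold in one narrow bin and by more in the other. From 3% to 5% globin, where 3.75% of 7067 genes were lower and 4.05% higher, it was at 122 CPM in tdTom+ (113 to 132) and at 200 CPM in tdTom- cells (183 to 219), with a log2 fold of -0.71 (-0.88 to -0.54). From 5% to 10% it was at 112.5 CPM (95.8 to 131) and at 240 CPM (231 to 250), where the log2 fold was -1.10 (-1.33 to -0.87) and passed the line, in bins in which 4.52% of 7612 genes were lower and 4.66% higher. Over 3% to 10% the log2 fold was -0.96 (-1.07 to -0.85). In tdTom- cells Klf1 was higher where globin was higher, from 124 CPM at 1% to 3% to 253 CPM at 10% to 15% and 248 CPM at 15% to 30%. In tdTom+ cells it stayed between 104 and 122 CPM over the 3 bins from 1% to 10%, with 86.0 CPM at 0.3% to 1% and 54.6 CPM at 0.1% to 0.3%. Within tdTom+ cells the fold of 3% to 10% over 1% to 3% was 0.21 on the log2 scale (0.09 to 0.33), and within tdTom- cells that of 10% to 30% over 1% to 3% was 1.03 (0.80 to 1.26). In these 2 comparisons 0.162% and 1.78% of all genes were higher and 1.1% and 14.7% were lower. The clusters change along the tdTom- bins, as given for the lowest bin below.

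Klf3 did not differ 2-fold within any bin. At 3% to 5% it was at 28.6 CPM in tdTom+ (24.3 to 33.4) and at 31.6 CPM in tdTom- cells (24.9 to 39.5), with a log2 fold of -0.15 (-0.55 to 0.27). At 5% to 10% the levels were 34.9 CPM (25.9 to 46.1) and 44.9 CPM (41.1 to 49.0). Its level was higher at higher globin share in both fractions, from 15.6 CPM at 1% to 3% in tdTom+ and from 16.8 to 60.5 CPM over the 5 tdTom- bins. The log2 fold was 0.93 (0.65 to 1.22) for 3% to 10% over 1% to 3% in tdTom+ cells and 1.78 (1.17 to 2.46) for 10% to 30% over 1% to 3% in tdTom- cells, or 1.26 (0.53 to 2.11) in the latter without the megakaryocyte-like cluster and the cluster of lowest UMIs. Cells of other tissues remain in that lowest tdTom- bin, as given below, and their part was not tested. Over 3% to 10% its log2 fold was -0.51 (-0.75 to -0.28), farther from 0 than in either narrower bin. The difference between the folds of Klf3 and Klf1 was not tested, nor was the part of globin share in either.

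Nfe2 was higher in tdTom+ cells in each shared bin. It was at 73.1 against 37.4 CPM at 1% to 3%, at 74.4 against 42.8 CPM at 3% to 5% and at 88.7 against 44.3 CPM at 5% to 10%, the last with a log2 fold of 1.00 (0.71 to 1.29). This last fold just reached the 2-fold line of a call, in a bin where 4.66% of all genes judged were higher. Nfe2 reached 50.2 CPM in the tdTom- cells of 15% to 30% and stood at 69.6 CPM in tdTom+ cells of 0.1% to 0.3%. Gfi1b lay between 47.4 and 55.9 CPM over the tdTom+ bins and between 56.8 and 67.2 CPM over the tdTom- bins. Its log2 fold at 3% to 10% was -0.25 (-0.43 to -0.07). The tdTom- values at 1% to 3% include megakaryocyte-like cells, which hold much of both genes. Without that cluster and the cluster of lowest UMIs, Nfe2 was at 22.4 CPM there (14 UMIs, 12.3 to 37.6) and Gfi1b at 32.1 CPM (20 UMIs, 19.6 to 49.5). The log2 folds of tdTom- cells at 10% to 30% over those at 1% to 3% were then 1.07 for Nfe2 (0.31 to 1.95) and 0.83 for Gfi1b (0.19 to 1.55), instead of 0.33 (-0.09 to 0.78) and -0.24 (-0.56 to 0.10) over all clusters. The tdTom- cells left at 1% to 3% still include cells of other tissues, as given below, and their part in these folds was not tested.

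Sox6 had the widest gap of the 7 genes within the bins. At 3% to 10% it had 166 UMIs in tdTom+ (23.6 CPM, 20.2 to 27.5) and 4 UMIs in tdTom- cells (0.292 CPM, 0.0796 to 0.748), a log2 fold of 6.34 (4.95 to 8.23), or 4.38 with called doublets kept. Its level in tdTom+ cells was 17.5 CPM at 1% to 3%, 21.4 CPM at 3% to 5% and 32.1 CPM at 5% to 10%. The tdTom- bins held 1 UMI, 1 UMI, 3 UMIs, 2 UMIs and 0 UMIs in turn. In each bin where Sox6 was judged, it reached the minimum of UMIs through tdTom+ cells alone, so that being judged already depended on a high level there. Sox6 was thus not confined to the tdTom+ cells of least globin, and its intervals in the tdTom- bins were not tested against those of tdTom+ cells.

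The bin of 1% to 3% also holds different clusters in the fractions, with a more mixed set of tdTom- cells, and was read apart. Of its 104 tdTom- cells 35 were megakaryocyte-like, 22 lay in a cluster with a median of 889 UMIs and 18 were erythroid-like, while 538 of its 626 tdTom+ cells were blood progenitor-like. Over all these cells the log2 folds were -0.25 for Klf1 (-0.49 to -0.01), -0.10 for Klf3, 0.97 for Nfe2, -0.50 for Gfi1b and 4.52 for Sox6 (2.02 to 9.82, against 1 UMI), beside 8.18% of genes lower and 3.15% higher. The call of Sox6 in this bin was lost as a mean over cells (0.52) and after thinning, where 52 UMIs in tdTom+ stood against 0 in tdTom- cells (at least 0.97 against the floor of 3 counts). Without the megakaryocyte-like cluster and the cluster of lowest UMIs, 625 tdTom+ and 47 tdTom- cells remained. Of these tdTom- cells, 18 were erythroid-like. The rest were spread over many clusters, most of other tissues such as somite-like and cardiomyocyte-like ones, with at most 3 cells in each. Their part in the folds was not tested. The values were -0.21 for Klf1, -0.62 for Klf3, 1.70 for Nfe2, 0.56 for Gfi1b and at least 1.86 for Sox6, against a floor of 3 counts over the tdTom- cells. The fold of Gfi1b therefore changed sign with the clusters counted, and at this lowest share Klf1 did not differ 2-fold either way.

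**Figure D2:**
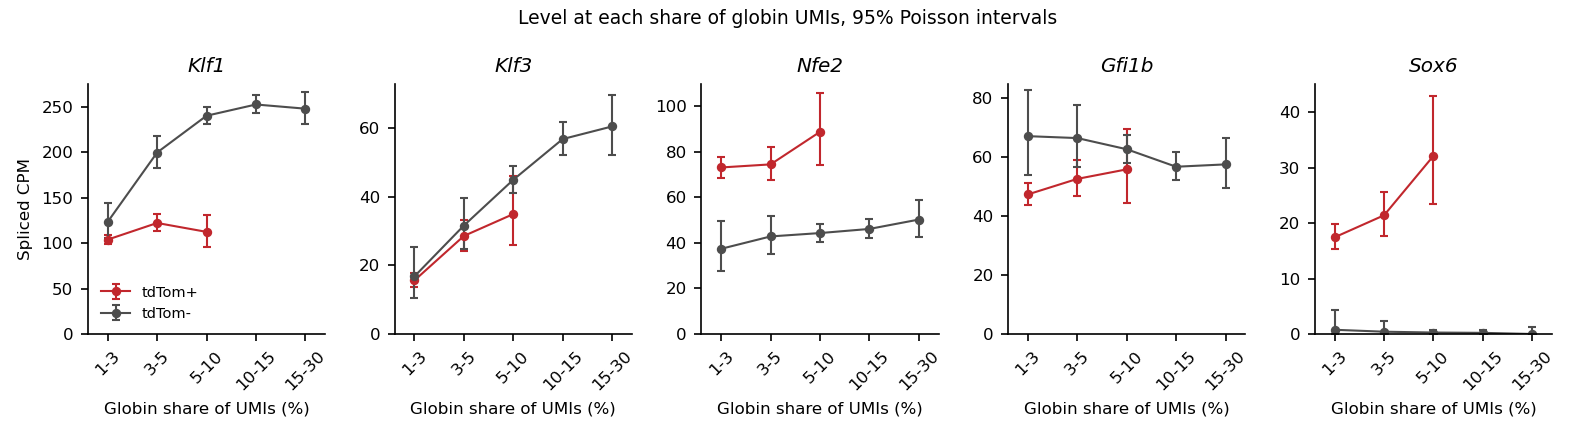
Level of 5 of the genes (spliced CPM, 1 panel each with its own axis) against the share of a cell's spliced UMIs on globin genes, by fraction, with exact Poisson 95% intervals. Klf1 climbs from 124 to 253 CPM over the tdTom- bins up to 15% and lies between 104 and 122 CPM in tdTom+, the Klf3 lines run together up to 5%, Nfe2 lies higher in tdTom+ throughout, and Sox6 lies near 0 in every tdTom- bin.

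Unspliced UMIs, which come from transcripts that still hold intron, were compared as a second readout of the same cells. Scaled to the total of unspliced UMIs, the background over 8130 genes was 5.38% lower and 4.9% higher in tdTom+ globin-expressing cells. Klf3 was lower in this layer too, with 81 UMIs against 281 in tdTom- cells and a fold of -1.56 on the log2 scale (-1.93 to -1.20). Klf1 had 26 and 58 unspliced UMIs and a log2 fold of -0.92 (-1.65 to -0.23). Gfi1b had 91 and 180, with -0.75 (-1.13 to -0.38). All 3 had unspliced folds on the same side of 0 as their spliced ones, although Klf1 and Gfi1b stayed under 2-fold.

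Nfe2 differed in direction between the layers. It had 15 unspliced UMIs in tdTom+ cells against 36, which gives -1.03 on the log2 scale (-2.003 to -0.123), against 0.72 for spliced UMIs. Its unspliced share was 0.962% of UMIs in tdTom+ (0.539% to 1.58%) and 2.79% in tdTom- cells (1.96% to 3.84%). Its 2 intervals did not overlap, while those of the others of the 7 genes did, and the share rests on 15 and 36 molecules. How many of all genes have such intervals apart is not given here, so how unusual Nfe2 is was not measured. At a globin share of at least 3% the shares were 0.911% and 2.9% and their intervals overlapped. For Klf1 the share was 1.13% and 0.875%, for Klf3 16.0% and 17.3%, and for Gfi1b 8.16% and 9.66%.

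Sox6 was mostly unspliced, and by this layer the gap was measured on more molecules. It had 4406 unspliced UMIs in tdTom+ and 80 in tdTom- globin-expressing cells, or 1707 and 26.3 CPM on the scale of unspliced UMIs, a log2 fold of 6.02 (5.70 to 6.36). The unspliced share was close in both, at 91.6% (90.8% to 92.4%) and 92.0% (84.1% to 96.7%). Over both layers, 18.8% of the tdTom+ globin-expressing cells held no Sox6 UMI and 17.4% held 10 or more, with up to 31 in a cell. Of the tdTom- ones, 95.4% held none and 0 of 1451 held 10 or more, with up to 6 in a cell. Outside blood and endothelial clusters, 55.4% of tdTom+ and 56.0% of tdTom- cells held no Sox6 UMI, and 2.07% and 2.20% held 10 or more. These pooled shares were close outside blood and far apart among globin-expressing cells, although Sox6 was lower in tdTom+ cells in several clusters outside blood taken one by one, as given below.

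**Figure D3:**
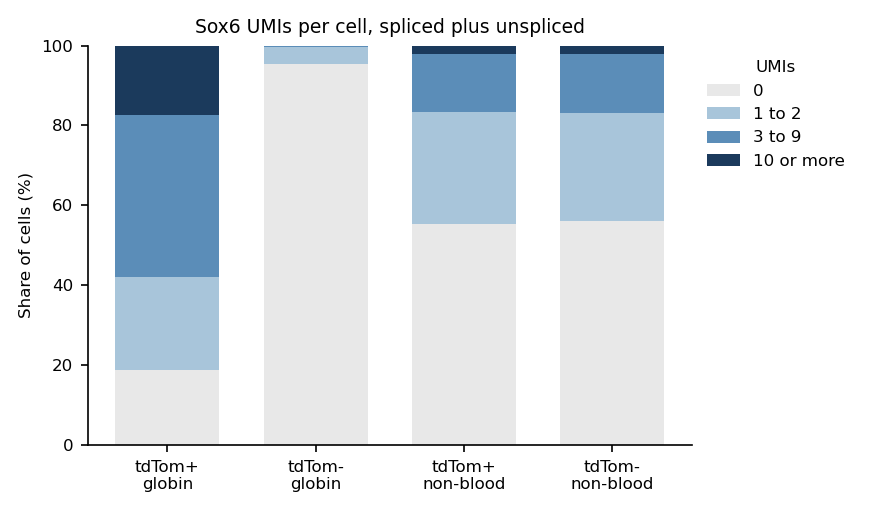
Share of cells (%, stacked to 100) by the number of Sox6 UMIs over both layers, for globin-expressing cells and for cells under 1% globin outside blood and endothelial clusters. Among tdTom- globin-expressing cells 95.4% held none and 0 held 10 or more, against 18.8% and 17.4% in tdTom+, while the bars outside blood show 55.4% and 56.0% with none.

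Zbtb7a and Bcl11a could be read only in part. Zbtb7a had 77 unspliced UMIs in tdTom+ and 134 in tdTom- globin-expressing cells, a log2 fold of -0.56 (-0.99 to -0.15). Over all cells the layers held 111 spliced and 1382 unspliced UMIs of Zbtb7a, or 20.3% of the 7353 UMIs that the deposited gene table gives from Cell Ranger, so the low spliced level is not a measure of how much of it the cells express. Bcl11a had 8 and 1 unspliced UMIs, and over all cells 147 spliced and 161 unspliced UMIs beside 260 in Cell Ranger. For Klf1, Nfe2 and Gfi1b the spliced layer held between 98.9% and 99.8% of the Cell Ranger UMIs, for Klf3 92.0% and for Sox6 78.4%.

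**Figure D4:**
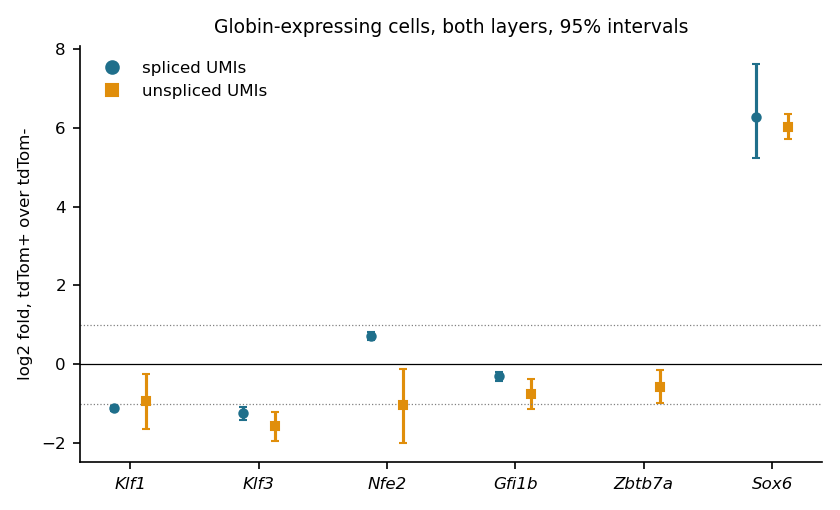
Log2 fold of tdTom+ over tdTom- globin-expressing cells for spliced (circles) and unspliced (squares) UMIs with exact 95% intervals; dotted lines mark 2-fold, and a layer with under 50 UMIs is left out. Nfe2 has its points on opposite sides of 0 (0.72 and -1.03), Klf3 lies at -1.24 and -1.56, and Sox6 lies at 6.28 and 6.02.

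The comparison of globin-expressing with other cells of the same library shows where each gene was found. In tdTom- cells 44.5% of 13641 genes were lower and 4.35% higher in globin-expressing cells, and in tdTom+ cells 35.4% of 13661 were lower and 4.65% higher. Klf1, Nfe2 and Gfi1b were higher in globin-expressing cells of both fractions. In tdTom- cells the log2 folds were 6.49 for Klf1, 4.92 for Nfe2 and 5.35 for Gfi1b, and in tdTom+ cells 4.01, 3.08 and 2.98. With other processing those of tdTom+ cells went as low as 2.925, 2.39 and 2.40, still above 2-fold. The tdTom+ cells under 1% globin include blood progenitor-like cells that hold these transcripts. Against cells outside the 6 blood and endothelial clusters, a comparison added after the values were seen, the log2 folds were 6.86 and 6.82 for Klf1, 6.04 and 5.97 for Nfe2 and 6.80 and 6.91 for Gfi1b in tdTom+ and tdTom- cells. In that comparison 5.92% of genes were higher and 36.0% lower in tdTom+ cells, and 4.64% higher and 43.9% lower in tdTom- cells.

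Klf3 and Sox6 moved in opposite directions in the fractions. Klf3 was at 20.4 CPM in globin-expressing and 33.0 CPM in other tdTom+ cells (-0.69, -0.84 to -0.55) and at 48.3 and 38.88 CPM in tdTom- cells (0.31, 0.22 to 0.40), under 2-fold both times. At a globin share of at least 3% the tdTom+ fold of Klf3 was -0.07, close to no change. Sox6 was higher in globin-expressing than in other tdTom+ cells, at 19.5 against 7.30 CPM (1.42, 1.25 to 1.59), and lower in tdTom- cells, at 0.252 against 8.31 CPM (-5.04, -6.36 to -4.00). The latter fold was -2.85 as a mean over cells and -3.33 with called doublets kept, and stayed a call both times. In that comparison Sox6 reached the minimum of UMIs through the other cells alone. In tdTom- cells Sox6 was thus a gene of other tissues, and in the tdTom+ library the globin-expressing cells exceeded the average of those tissues. Bcl11a had 6 UMIs in globin-expressing and 96 in other tdTom+ cells and was called lower in the former (-1.31, -2.80 to -0.14), a call that was lost when blood clusters were left out. It reached the minimum of UMIs through the other cells alone, so that being judged already depended on a high level there.

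Over clusters, Klf1, Nfe2 and Gfi1b marked the same blood clusters, in a different order for each. Clusters were made without the 7 genes, the globin genes and Gata1, and 55 groups of a cluster and a fraction held at least 50 cells. Klf1 was highest in the erythroid-like tdTom- cells at 244 CPM, followed by the megakaryocyte-like tdTom- cells at 110 CPM and the blood progenitor-like tdTom+ cells at 109 CPM, which did not differ beyond their intervals. The unnamed tdTom+ cluster with blood progenitor and myeloid genes came next at 31.9 CPM, and no other group exceeded 5.504 CPM. Nfe2 was highest in that unnamed tdTom+ cluster led by myeloid genes, at 91.6 CPM, then at 71.8 CPM in megakaryocyte-like tdTom-, 67.1 CPM in blood progenitor-like tdTom+ and 45.2 CPM in erythroid-like tdTom- cells, the middle pair with overlapping intervals. Gfi1b was highest in megakaryocyte-like tdTom- cells at 92.3 CPM, with 60.6 CPM in erythroid-like tdTom- cells, 56.1 CPM in the unnamed tdTom+ cluster and 49.9 CPM in blood progenitor-like tdTom+ cells. The erythroid-like tdTom- cluster thus led for Klf1 alone.

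Klf3 and Sox6 had their highest levels outside blood. Klf3 reached 85.3 CPM in a neural-like and 77.9 CPM in an endothelial-like tdTom- group, was at 50.4 CPM in erythroid-like tdTom- cells, and was lowest of the 55 groups in megakaryocyte-like tdTom- cells at 5.24 CPM. Among groups of at least 50 cells Sox6 was highest in extraembryonic mesoderm-like cells, with 48.8 CPM for the tdTom- and 31.0 CPM for the tdTom+ group of the cluster. Notochord-like groups, of 40 and 43 cells, stood at 54.0 CPM in tdTom- (28 UMIs) and 45.9 CPM in tdTom+ (25 UMIs). Sox6 was at 16.1 CPM in the blood progenitor-like and 17.7 CPM in the unnamed tdTom+ cluster, at 0.230 CPM in erythroid-like tdTom- cells, and at 0 UMIs in megakaryocyte-like tdTom- cells. Bcl11a, known from lymphoid and early progenitors, had 62 of its UMIs in the unnamed tdTom+ cluster (6.36 CPM, 463 cells), and the 30 tdTom- cells of that cluster held 17 UMIs (37.5 CPM). That tdTom- group is below the size at which the order of groups was read.

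**Figure D5:**
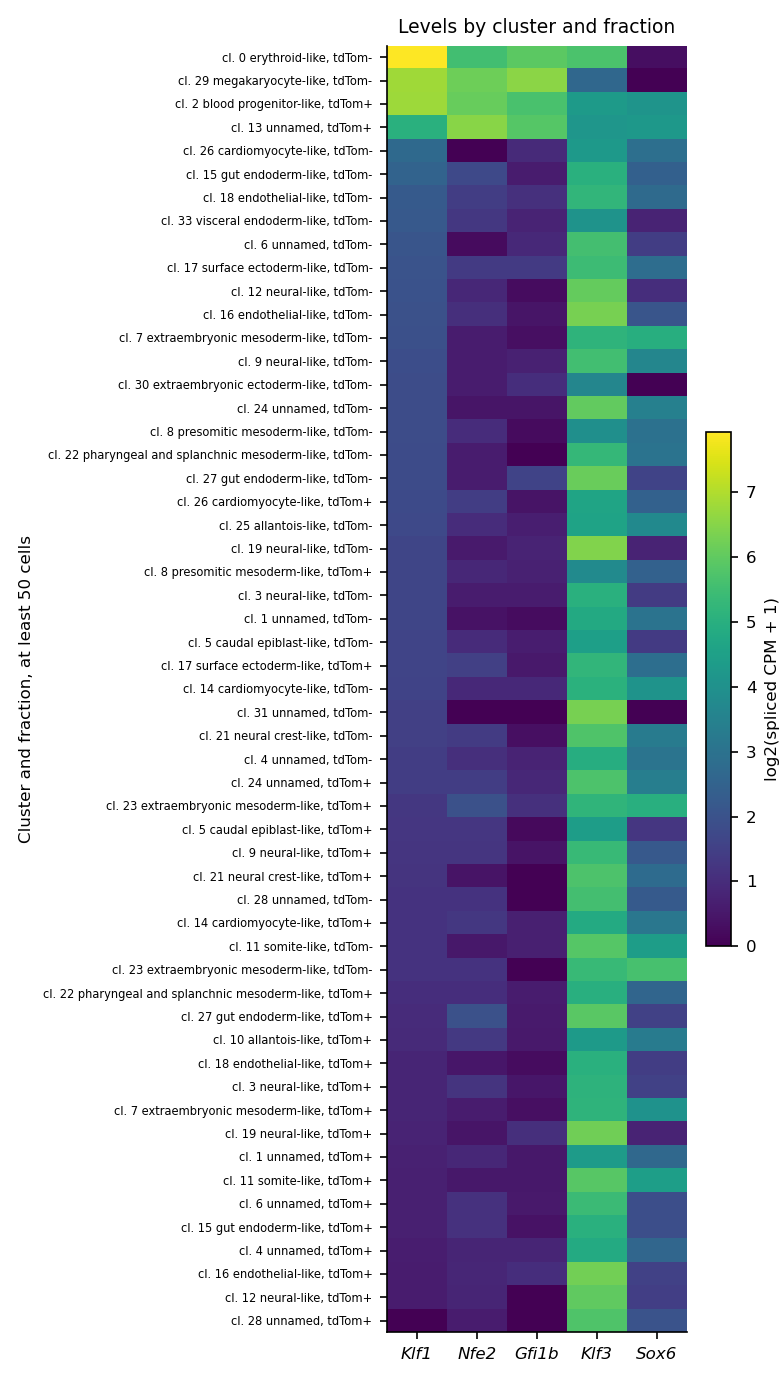
Heat map of log2(spliced CPM + 1) for 5 of the genes over the 55 groups of a cluster and a fraction with at least 50 cells, ordered by Klf1. Klf1, Nfe2 and Gfi1b are bright in the same 4 blood groups at the top (Klf1 at 244, 110, 109 and 31.9 CPM), Klf3 is spread over nearly all groups, and Sox6 is bright in extraembryonic mesoderm-like groups and dark in the erythroid-like tdTom- group.

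Between the fractions outside globin-expressing cells, Klf1, Nfe2, Gfi1b and Bcl11a were higher in tdTom+ cells, where 1.86% of 14640 genes were higher and 2.51% lower. Their levels were 6.79 against 2.63 CPM for Klf1, 8.79 against 1.49 CPM for Nfe2 and 6.27 against 1.49 CPM for Gfi1b. Bcl11a reached the minimum of UMIs through its tdTom+ cells alone. Without the blood and endothelial clusters these calls were gone, and only Klf1 differed 2-fold, with 2.10 CPM in tdTom- against 0.944 CPM in tdTom+ cells (-1.15 on the log2 scale), in a comparison with 2.38% of genes lower and 0.545% higher. This level is close to the 0.802 and 2.47 CPM of neural-like cells, the cells that stand in for free RNA. Outside blood and endothelial clusters Klf3 was at 33.9 and 38.3 CPM and Sox6 at 7.06 and 8.6 CPM. Within single clusters, the log2 fold of Klf3 ran from -0.46 to 0.34 over 23 clusters with 0 called. For Sox6 it ran from -1.65 to 0.05 over 9 clusters, of which 1, a neural-like cluster with 11 and 90 UMIs, was called lower in tdTom+. That cluster reached the minimum of UMIs through its tdTom- cells alone. The median over the 9 clusters was -0.61. Both extraembryonic mesoderm-like clusters (-0.97 and -0.65) and a cardiomyocyte-like one (-0.99) also had intervals below 0, under 2-fold. None of these clusters had Sox6 called higher or Klf3 called lower in tdTom+ cells. Genotype, clone, origin and library change together in these clusters as well, and their part was not tested.

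How many of the genes a single cell showed was counted after thinning to 5000 UMIs. Of Klf1, Klf3, Nfe2, Gfi1b and Sox6, no UMI was found in 29.0% of tdTom+ and 16.0% of tdTom- globin-expressing cells, and UMIs of 2 of the genes were found in 22.3% and 30.5%. In neural-like cells 77.2% and 76.5% showed none, and most of the rest showed 1, which Klf3 can give.

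The genes most like each regulator over the 55 groups were named by the Pearson correlation of log2(CPM + 1), as a description over groups that share libraries. Klf1 was most like Hbb-bh1 (r = 0.964), Hba-a1 (0.951) and Cited4 (0.939). Gfi1b and Nfe2 were alike at 0.929, and both were close to Tspan32 (0.943 and 0.920) and Klf1 (0.912 and 0.853). Klf3 had weaker matches in Efnb2 (0.704), Kctd12b (0.698) and Mn1 (0.656). Sox6 went with the matrix genes Col1a2 (0.811) and Col3a1 (0.721) and with Cd248 (0.728), genes of connective tissue and mesoderm. Bcl11a and Zbtb7a fell under the mean of 5 CPM that was required.

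Genes known as targets or partners of the 7 regulators were counted in the same comparison of globin-expressing cells, where the median log2 fold of all genes was 0.16. Of 9 genes known as Klf1 targets, 8 had enough UMIs and 7 of them were lower, with a median of -1.76, where 4.58% of all genes were lower. Slc4a1, the band 3 anion exchanger of the red cell membrane, was at 16.2 against 119 CPM (-2.88), and Alas2, the first enzyme of haem synthesis in red cells, at 37.0 against 251.5 CPM (-2.77). Both, and Epb42 of the same list, are also among the erythroid markers summed above, so this count partly repeats that comparison. The exception was E2f2, a cell cycle factor, at -0.22. At 3% to 10% globin 5 of the 8 were lower, with a median of -1.34 beside 0.04 for all genes, of which 4.67% were lower. At 1% to 3% globin 2 of the 8 were lower, with a median of -0.86 beside -0.08 for all genes, of which 8.18% were lower. Slc4a1, with -0.86 at 3% to 10%, was under 2-fold there.

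The other lists are read against the same shares of all genes, 4.58% lower and 7.87% higher. Of 11 other Klf genes 2 were lower, Klf15 (-2.92) and Klf4 (-1.78), and 1 higher, Klf2 (2.35), a factor of embryonic globin expression and endothelium, with a list median of 0.10. Of 8 genes of the Gata1 complex, Gata1 was lower by its spliced UMIs and Cbfa2t3, which codes for the corepressor ETO2, was higher at 163 against 55.0 CPM (1.57), with a median of 0.12. Of 6 partners and relatives of Nfe2 and of 5 of Gfi1b, 0 were called in either direction, with medians of -0.17 and 0.30. Of 9 partners and relatives of the silencers, 2 were higher, Zbtb16 (21.1 against 0.612 CPM, 5.11), the PLZF gene of early progenitors, and Bcl11b (1.99), with a median of 0.31. Like Sox6, Zbtb16 reached the minimum of UMIs through its tdTom+ cells alone, so that being judged already depended on a high level there. Of 4 genes known as Nfe2 targets only Rab27b could be judged, with -0.20.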

How the data were processed

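The submitters' processing notes name Cell Ranger 3.0.2 and mm10 (GRCm38). Cells were called with emptyDrops, and velocyto split the molecules into a spliced and an unspliced layer. The deposited values of both layers are UMI counts that were not normalized, for 18233 cells, and 0 values were negative or not whole. The deposited quality metrics list 18239 cells, for each of which the authors gave mitochondrial UMIs as a percent of all its UMIs. It had a median of 2.07% for the tdTom+ and 2.08% for the tdTom- library. Cell types of the authors were not used here.

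Processing used Python 3.11.15, NumPy 2.4.6, SciPy 1.17.1, pandas 2.3.3, Scanpy 1.11.5, scikit-learn 1.9.0, leidenalg 0.10.2 and Matplotlib 3.10.9. Scrublet called 394 tdTom+ (4.39%) and 518 tdTom- cells (5.60%) doublets within each library, and these were left out, as was any cluster with over 50% called cells. Cells were clustered (2000 variable genes, 40 components, 20 neighbours, Leiden resolution 1.5) without the 7 genes, 8 globin genes and Gata1, and also without Xist and Y-linked genes. A cluster of the 35 kept took a class name from at least 3 markers raised at least 2-fold with 10 CPM added. For each set of cells the UMIs of a gene were added up and scaled to 1000000 UMIs of that layer. Levels have exact Poisson, shares Clopper-Pearson and folds exact conditional intervals at 95%. With 1 library per fraction no test was run. Genes with under 50 UMIs over both groups were not called, and against 0 UMIs a floor of 3 counts over the group was used. The fold code was tested on simulated data. Promoters came from RefSeq.

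The 7 genes and the lists of targets, partners and markers were chosen with earlier results of these data known. Named besides the 7 and Gata1 were the 2 genes of largest change in each direction from each list, and the 3 most alike over clusters. E2f2 and Rab27b, both under 2-fold, were named after their values were seen.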

Additional observations from a re-analysis of the deposited data

Results flagged for a closer look

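Klf3 and Sox6 were marked because their change from other to globin-expressing cells ran in opposite directions in the fractions, each with an interval that excludes no change. For Klf3 the log2 fold was -0.69 in tdTom+ and 0.31 in tdTom- cells. The former was -0.07 at a globin share of at least 3%, so the opposite direction of Klf3 depends on the cut. For Sox6 it was 1.42 in tdTom+ and -5.04 in tdTom- cells. The difference between the fractions was not tested, since each is 1 library.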

How the results depend on the processing

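Of 414 values from 17 other ways of processing, 328 stayed close to the value reported, 84 moved, and 2 folds that had been called changed sign. Some folds that had not been called also changed sign. The counts of called genes among the 7 moved as follows, and the cause was not tested unless it is named. In globin-expressing cells, 2 lower (Klf1, Klf3) became 1 (Klf1) at a globin share of at least 3% and with the level of neural-like cells subtracted. The subtraction leaves Klf3 no value here or within bins, since neural-like cells express it at least as highly and both fractions fall to the floor. For globin-expressing over other tdTom+ cells, 1 lower (Bcl11a) became 2 as a mean over cells, and 0 with thinning, at a share of at least 3%, or outside blood clusters. In tdTom- cells 1 lower (Sox6) became 2 with both layers summed (Bcl11a joined). At 1% to 3% globin, 0 lower became 1 with both layers (Zbtb7a). There 1 higher (Sox6) became 2 (Nfe2 and Sox6) with both layers, with doublets kept, or without the megakaryocyte-like and lowest-UMI clusters. At 3% to 10%, 0 lower became 1 (Klf1) as a mean over cells, with thinning, or at 5% to 10%, and 1 higher became 0 with thinning (under 50 UMIs of Sox6). At 5% to 10% the 1 higher was Nfe2 in place of Sox6, which was just under 50 UMIs there. In other cells, 4 higher became 0 and 0 lower became 1 (Klf1, -1.15) outside blood clusters, where Gfi1b changed sign to -0.18. The 1 gene with a different unspliced share (Nfe2) became 0 at a globin share of at least 3%. By another measure, the fold of unspliced CPM, 3 were called (Klf3, Nfe2, Sox6), where 5.38% of all genes judged were lower and 4.9% higher. The unspliced shares of Klf3 and Sox6 had overlapping intervals. The background of 12.5% of genes called became 8.95% at a minimum of 200 UMIs and 12.4% at 1 UMI in each group.

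Over the alternatives in globin-expressing cells the log2 fold ran from -1.22 to -1.01 for Klf1, -1.35 to -0.74 for Klf3 (the last at a share of at least 3%), 0.57 to 0.76 for Nfe2, -0.41 to -0.18 for Gfi1b and 4.14 (as a mean over cells) to 7.34 for Sox6, the last with tdTom- cells at the floor after subtraction. That 7.34 is a bound set by the floor of 3 counts and not a measured size. Some neural-like cells express Sox6, so the subtraction does not remove background alone. The alternatives that leave out blood clusters, the 2 clusters or split the bins were added after the data were seen. No paired analysis was possible because each fraction is 1 library. Bcl11a, with spliced counts of 6 and 2, had too few to judge, and the spliced layer held 56.5% of its Cell Ranger UMIs. The part of depth in this was not tested. Zbtb7a, with 3 and 7, is limited by the spliced layer, which held 1.51% of its Cell Ranger UMIs.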
